A study of Homo sapiens with 2 samples.

Results

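Toll-like receptors and the proteins that carry their signal were followed in H2228 cells with and without interleukin 4 (IL4). The 10 genes are TLR1, TLR2, TLR3, TLR4, TLR5 and TLR6, the adaptor genes MYD88 and TICAM1, and the kinase genes IRAK1 and IRAK2. They were taken by name, with every probe set annotated to a single one of them, which gave 19 probe sets among the 41091 probe sets and 19775 genes that could be named. H2228 cells, a line from a human lung adenocarcinoma, harbor the EML4-ALK variant 3 fusion, and IL4 is a cytokine that signals through JAK kinases and STAT6. RNA of untreated H2228 cells and of H2228 cells given IL4 was put on GeneChip Human Genome U133 Plus 2.0 arrays, 1 for either condition. The series description gives 100 ng/mL IL4 for 30 min, and the sample labels of both arrays also speak of a 48 h transfection with EML4-ALK plasmids, siRNAs or controls without saying which, if any, these cells received. There were no replicates and hence no test of a difference, and IL4 and any other difference between the 2 cultures cannot be told apart.

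Toll-like receptors are membrane proteins of innate immunity that bind conserved molecules of microbes and of damaged cells. TLR2 pairs with TLR1 or with TLR6 at the cell surface to bind lipoproteins, TLR4 binds lipopolysaccharide together with LY96, TLR5 binds flagellin, and TLR3 binds double-stranded RNA in endosomes. All of these except TLR3 pass their signal through MYD88, which gathers the IRAK kinases, whereas TLR3 uses TICAM1 (also called TRIF) and TLR4 uses both adaptors. The signal ends in NF-kB, AP-1 and IRF transcription factors, and airway epithelial cells are known to use several of these receptors.

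Values are deposited log2 expression values, and a log2 difference is IL4 minus untreated. A gene was represented by whichever of its probe sets had the highest mean of both arrays. The median of all probe sets was 5.03. A value is called dim if it lay below this median, and a gene or probe set is called bright if its mean over both arrays did not. Bright is a place relative to this median and no sign that a gene is expressed. The leukocyte markers CD79A and CD3E, for example, were bright, at 5.88 and 5.56 in untreated cells. Genes were counted from a 1.5-fold difference on, which is 0.58 on the log2 scale, and this count is a description and not a test. In 6056 genes with at least a pair of bright probe sets, the log2 differences of the first and the second differed with an SD of 0.25, and in 3867 genes with at least a pair of dim ones the SD was 0.34. These SDs measure disagreement within the same pair of arrays, not variation between cultures.

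IRAK2, TICAM1 and TLR2 were at least 1.5-fold higher with IL4, TLR1, TLR6 and TLR3 were at least 1.5-fold lower, and TLR4, TLR5, MYD88 and IRAK1 differed by less. Thus 3 of 10 genes were higher and 3 of 10 were lower, whereas 3.21% of all 19775 genes were higher and 4.39% were lower. The 10 genes were chosen with earlier results of these data known, which may bear on these shares. Of the bright genes, 4.34% were higher and 5.88% were lower, and of the 9 bright ones among the 10 genes, 3 were higher and 2 were lower. At 2-fold, IRAK2 was the 1 higher gene and TLR1, dim on both arrays, the 1 lower gene, beside 1.11% and 0.89% of all genes. The log2 differences ran from -1.61 to 1.39 with a median of -0.079, and the median over all genes was 0. As these were bulk cultures, fewer cells that express a gene and less RNA per cell cannot be told apart.

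**Figure D1:**
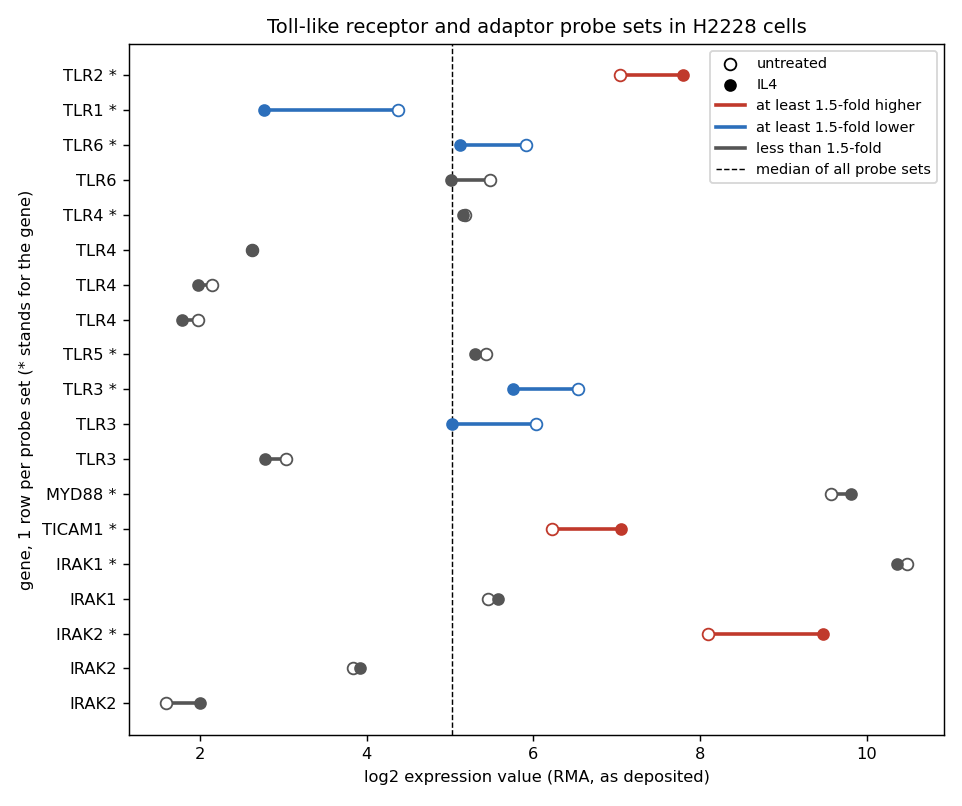
Log2 expression values (x axis) of the 19 probe sets of the 10 genes in untreated cells (open circles) and cells given IL4 (filled circles). Rows are probe sets, and the asterisk marks the one that stands for the gene. Each circle is 1 array, and levels can be compared along a row but not between rows. Red rows were at least 1.5-fold higher and blue rows at least 1.5-fold lower, and the dashed line is the median of all probe sets, 5.03. IRAK2 was at 8.09 in untreated cells and 9.48 with IL4, and TLR3 was at 6.54 and 5.75.

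The DNA before the start of the 5 genes past 1.5-fold for which RefSeq promoters were at hand is shown because the higher and the lower genes differed in it. RefSeq promoters on GRCh38.p14 were matched for 9 of the 10 genes, all but TLR1. The 250 bases before the start lie at chr19:4831713-4831962 on the minus strand for TICAM1, at chr4:153684030-153684279 on the plus strand for TLR2 and at chr3:10164669-10164918 on the plus strand for IRAK2. They lie at chr4:186068906-186069155 on the plus strand for TLR3 and at chr4:38856818-38857067 on the minus strand for TLR6. Capitals mark a match to the consensus of NF-kB sites (kB) in TICAM1, and matches to TTCNNNGAA, a STAT-type motif, in TLR3.
TICAM1: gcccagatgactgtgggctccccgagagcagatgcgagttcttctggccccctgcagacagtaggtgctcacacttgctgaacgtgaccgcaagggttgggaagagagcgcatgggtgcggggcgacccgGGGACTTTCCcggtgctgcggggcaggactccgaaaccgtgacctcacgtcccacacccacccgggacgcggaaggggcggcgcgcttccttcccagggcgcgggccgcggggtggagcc
TLR2: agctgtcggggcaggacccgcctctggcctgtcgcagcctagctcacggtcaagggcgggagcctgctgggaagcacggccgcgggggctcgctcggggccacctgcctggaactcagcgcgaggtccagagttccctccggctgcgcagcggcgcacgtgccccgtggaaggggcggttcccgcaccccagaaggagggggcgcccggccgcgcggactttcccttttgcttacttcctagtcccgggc
IRAK2: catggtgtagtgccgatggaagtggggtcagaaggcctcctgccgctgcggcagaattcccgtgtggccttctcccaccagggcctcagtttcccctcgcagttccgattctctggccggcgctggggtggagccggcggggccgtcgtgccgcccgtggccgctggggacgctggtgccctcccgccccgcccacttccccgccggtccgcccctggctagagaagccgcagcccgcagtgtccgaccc
TLR3: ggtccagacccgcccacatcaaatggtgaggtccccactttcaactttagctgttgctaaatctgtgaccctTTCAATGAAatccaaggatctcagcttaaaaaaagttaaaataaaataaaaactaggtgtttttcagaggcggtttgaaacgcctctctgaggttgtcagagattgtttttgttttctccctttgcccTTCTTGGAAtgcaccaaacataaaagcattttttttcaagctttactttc
TLR6: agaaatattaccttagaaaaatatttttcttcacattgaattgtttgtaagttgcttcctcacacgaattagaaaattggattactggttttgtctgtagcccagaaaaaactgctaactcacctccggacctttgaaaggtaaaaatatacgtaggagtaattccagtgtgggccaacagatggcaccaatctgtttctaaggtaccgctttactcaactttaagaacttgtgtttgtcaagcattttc
The higher genes TLR2, IRAK2 and TICAM1 had 72.4%, 72.0% and 69.2% G and C in these 250 bases, and the lower genes TLR3 and TLR6 had 39.2% and 36.4%. Among the genes that differed by less than 1.5-fold, IRAK1, TLR5 and MYD88 had 82.4%, 66.0% and 64.4%, and TLR4 had 46.4%. These few higher and lower genes did not overlap in base composition, but the genes in between spanned most of the range. The contrast was picked after the values were seen. Over all 15384 measured genes with a promoter the median was 62.4%. It was 67.6% for the 492 genes at least 1.5-fold higher and 62.0% for the 717 genes at least 1.5-fold lower. The lower genes as a whole were thus close to all genes in G and C.

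Motifs were searched on both strands of the same 250 bases, and were chosen after the results were seen. The kB consensus was matched in TICAM1, from base -120 to base -111 counted from the start, and in IRAK1, and in 9.96% of all 35116 promoters. The bases matched in TICAM1 were GGGACTTTCC, which 0.179% of promoters held. TTCNNNGAA was present in 6.57% of promoters, among them TLR3 with a pair of matches and MYD88. The MYD88 match overlapped a match to GAAANNGAAA, a motif of IRF factors held by 3.02% of promoters. TTCNNNNGAA, the STAT6-type motif held by 5.38% of promoters, and TGANTCA, the AP-1 motif held by 6.57%, were not among these letters in any of the 9 windows. A match is a description of the letters and not a binding site.

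Among the receptors of lipoproteins, TLR2 was higher and TLR6 was lower, and TLR1 was lower within the dim range. TLR2, the common partner, had a log2 value of 7.03 in untreated cells and 7.80 with IL4, a 1.70-fold higher level. Of all genes, 1.96% had an increase at least as large. TLR6, one of its partners, was at 5.92 in untreated cells and 5.12 with IL4 and was 1.74-fold lower. Its value with IL4 lay only 0.093 above the median of all probe sets, close to the dim range. The second probe set of TLR6 was at 5.48 and 5.01, a log2 difference of -0.47, which had the same direction but stayed under 1.5-fold. On this second probe set the value with IL4 was dim. TLR1, the other partner, was at 4.38 in untreated cells and 2.77 with IL4. Both values were dim, so no fold is given, and the log2 difference of -1.61 shows a direction more than a size. Of the 6826 genes that were not bright, 1.55% were at least 1.5-fold lower. TLR1 and TLR2 have 1 probe set each, so neither has a second reading on these arrays. The log2 difference of TLR2 exceeded that of TLR6 by 1.56.

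TLR1 and TLR6 are neighbours on chromosome 4, beside TLR10, and encode closely related proteins. TLR10, which is not one of the 10 genes, was dim at 3.56 in untreated cells and 3.62 with IL4. Whether probes of TLR1, TLR6 and TLR10 bind each other's transcripts was not tested.

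TLR3, the endosomal receptor of double-stranded RNA, was lower, and its adaptor was higher. TLR3 had a log2 value of 6.54 in untreated cells and was 1.72-fold lower, at 5.75, with IL4. A second probe set was at 6.03 in untreated cells and 5.02 with IL4, a log2 difference of -1.01, and its value with IL4 was just dim. The last one was dim on both arrays at 3.03 and 2.78, a log2 difference of -0.25. All 3 probe sets were thus lower with IL4, and 2.08% of all genes had a decrease at least as large as the first. TICAM1, through which TLR3 signals, was at 6.23 and 7.06 and thus 1.78-fold higher with IL4, and 1.70% of genes had an increase at least as large. It was read by 1 probe set. The log2 difference of TICAM1 exceeded that of TLR3 by 1.61.

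The receptors of lipopolysaccharide and flagellin differed by less than 1.5-fold and lay close to the dim range. TLR4 was at 5.18 in untreated cells and 5.15 with IL4, a log2 difference of -0.033. The other 3 probe sets of TLR4 were dim, with values from 1.78 to 2.63, and one of them had the same value of 2.63 on both arrays. Identical values on both arrays were found for 8.28% of all 54675 probe sets, so a log2 difference of 0 is no sign of a precise measurement. TLR5 was at 5.43 in untreated cells and 5.30 with IL4, a log2 difference of -0.13, from 1 probe set.

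MYD88, the adaptor shared by most of these receptors and by the IL1 receptors, was far above the dim range on both arrays. Untreated cells had 9.57 and IL4-treated cells 9.81, a log2 difference of 0.24 that 15.6% of all genes reached or exceeded. MYD88 was therefore 1.18-fold higher, under the level of 1.5-fold. The log2 difference of the other adaptor, TICAM1, was larger by 0.59.

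The IRAK kinases differed from each other. IRAK2, a kinase that MYD88 recruits and that sustains the signal, was at 8.09 in untreated cells and 9.48 with IL4. It was 2.62-fold higher with IL4, the largest increase of the 10 genes, and ranked 105th of all 19775 genes. Its other 2 probe sets were dim on both arrays, at 3.84 and 3.92 and at 1.60 and 2.01. These had log2 differences of 0.080 and 0.41. All 3 probe sets were thus higher with IL4, with a mean of 0.63, but only 1 of them was bright, and the size of the increase rests on it. IRAK1, a kinase that MYD88 recruits and that passes the signal to TRAF6, had 10.48 in untreated cells and 10.36 with IL4. Its second probe set was at 5.46 and 5.58, so the log2 differences of -0.12 and 0.12 were opposite in sign. The log2 difference of IRAK2 exceeded that of IRAK1 by 1.51.

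**Figure D2:**
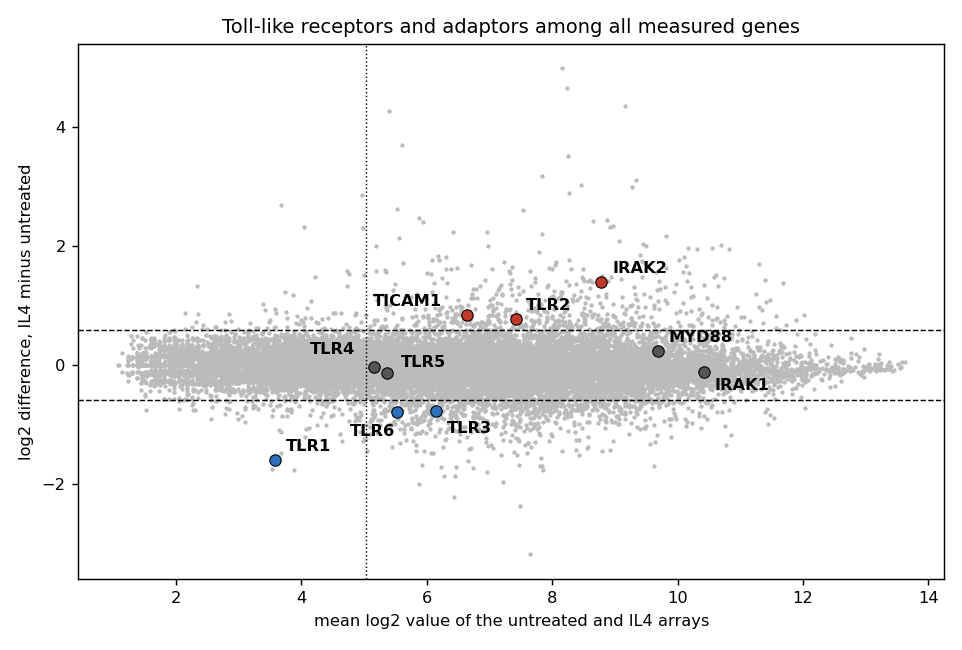
The y axis gives log2 differences, IL4 minus untreated, and the x axis the mean log2 value of both arrays, with every measured gene as a grey point and the 10 genes labelled. The 1.5-fold levels are dashed and the median of all probe sets is dotted; IRAK2 lies highest at 1.39, and TLR1 lies lowest at -1.61, left of the dotted line.

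The remaining genes of the pathway were taken from 5 lists by role. Of 93 genes, 82 were measured and the other 11 were not analysed here. Of the 82, 18 were at least 1.5-fold higher and 4 were at least 1.5-fold lower, which is 22% and 4.88%, beside 3.21% and 4.39% of all genes. The lists were chosen with earlier results of these data known, so these shares describe the lists and are no independent finding. The median log2 difference was 0.12, and 0 over all genes. The 18 higher genes lay mostly at the far end of the pathway, since 10 were induced genes, 7 were transcription factors or IkB proteins, and 1 was an adaptor-level gene. Averaged over their probe sets, the 4 lower genes PELI2, CASP8, MAP2K6 and REL were under 1.5-fold.

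Of 14 other receptors and accessory proteins, 0 were past 1.5-fold in either direction, with log2 differences from -0.34 to 0.15. Of all genes, 7.6% were past this level, so 0 of 14 says little about the list. LY96, which binds lipopolysaccharide together with TLR4, went from 8.67 to 8.33. The chaperone HSP90B1, which folds Toll-like receptors, was at 10.57 and 10.34. CD14, the coreceptor of lipopolysaccharide, was dim and had the value 4.84 on both arrays. TLR7, TLR8 and TLR10 were dim on both arrays, and TLR9, a receptor of DNA, was at 5.07 and 5.18. CD14 and these receptors were named after their values were seen.

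Of 12 other adaptors and receptor-proximal proteins, 1 (8.33%) was higher and 2 (16.7%) were lower, beside 3.21% and 4.39% of all genes. TRAF3, a ubiquitin ligase that links TICAM1 to IRF signalling and restrains the alternative NF-kB pathway, was 1.87-fold higher, from 8.15 to 9.06. Its second probe set had a log2 difference of 0.60. PELI2, a ubiquitin ligase that acts on IRAK proteins, was 1.57-fold lower, from 6.34 to 5.69, while its second probe set was dim and had a log2 difference of 0.26. CASP8 was 1.54-fold lower, from 9.74 to 9.12, and its other probe sets had -0.35 and -0.20. TRAF6, the ubiquitin ligase directly downstream of the IRAK kinases, had a log2 difference of 0.29, and IRAK3, an inhibitor of the IRAK kinases, had -0.46. The 3 probe sets of IRAK3 ran from -1.13 to -0.23, and their mean of -0.61 was past 1.5-fold. TRAF6 and IRAK3 were also named after their values were seen.

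Of 18 downstream kinases, 0 were higher and 1 (5.56%) was lower, beside 3.21% and 4.39% of all genes, so the share of lower genes was near that of all genes. MAP2K6, which activates p38 kinases, was 1.70-fold lower, from 6.38 to 5.62. Its second probe set was dim and had a log2 difference of 0.023. The median log2 difference of the list was -0.033, and phosphorylation, by which these kinases act, is not measured on arrays.

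Of 17 transcription factors and IkB proteins, 7 (41.2%) were higher and 1 (5.88%) was lower, beside 3.21% and 4.39% of all genes. Their median log2 difference was 0.50. ATF3, RELB and NFKB1 had log2 differences of 1.77, 1.62 and 1.49, and JUN was at 9.86 in untreated cells and 11.36 with IL4. RELB and NFKB1 encode NF-kB subunits, and JUN is part of AP-1. All 4 probe sets of JUN were higher, by 1.36 to 2.02 on the log2 scale. ATF3, a stress-induced repressor of Toll-like receptor responses, had a second probe set with 0.66 and a dim one with -0.0083. REL, a further NF-kB subunit, was 1.52-fold lower, and its other 2 bright probe sets had -0.69 and -0.83.

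Of 21 genes known to be induced by Toll-like receptors, 10 (47.6%) were higher and 0 were lower, beside 3.21% and 4.39% of all genes. Their median log2 difference was 0.58. PTGS2, CCL2, CXCL8 and TNFAIP3 had log2 differences of 4.99, 4.66, 4.35 and 3.11. They encode the inducible cyclooxygenase, a pair of chemokines and an inhibitor of NF-kB signalling. IFNB1, the interferon gene that the TICAM1 branch induces, was dim at 3.89 in untreated cells and 3.76 with IL4. CXCL10, an interferon-induced chemokine gene, was dim at 3.55 and 3.61, and TNF was dim at 4.11 and 4.28. These 3 were named after their values were seen. Many of the same genes are also induced by other stimuli of NF-kB, and the labels name no ligand of a Toll-like receptor. The source of the increases was not tested.

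**Figure D3:**
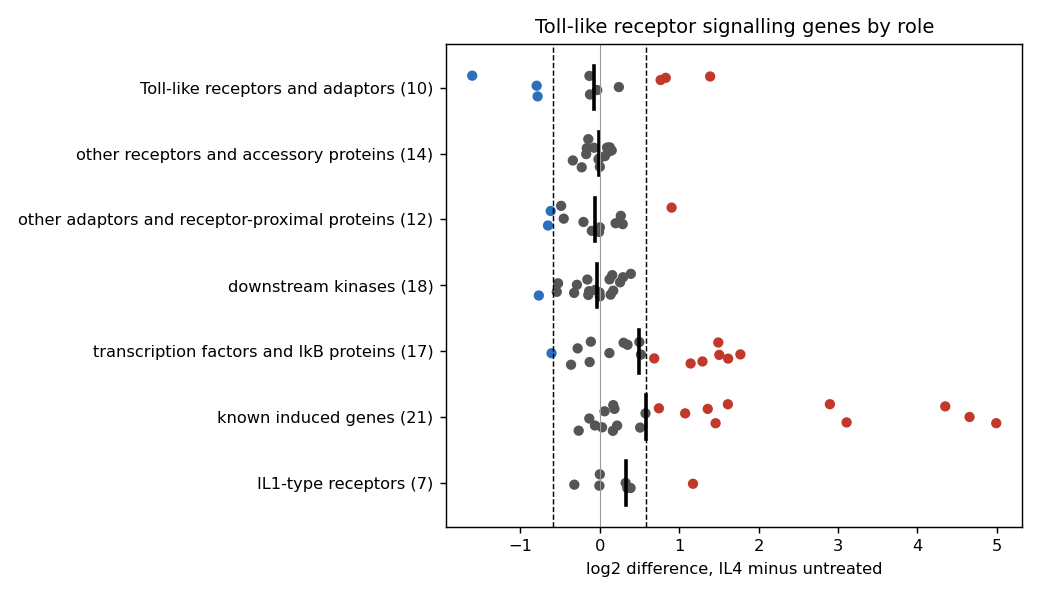
The x axis gives log2 differences, IL4 minus untreated, for the 10 genes, 5 lists of pathway genes and a list of IL1-type receptors (rows, with the number measured), with a point for every gene and random vertical spacing. Medians are black, the 1.5-fold levels are dashed, and genes past them are red (higher) or blue (lower); 10 of 21 induced genes are red, and the 14 other receptors and accessory proteins lie between -0.34 and 0.15.

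The cell type was checked through markers. None of the 10 markers of lung epithelium and adenocarcinoma was dim on either array, with CDH1 at least 1.5-fold higher and NKX2-1 at least 1.5-fold lower. Toll-like receptors are abundant in myeloid cells, so 14 leukocyte and myeloid markers were examined, of which 12 were measured. Of these 12, 8 were dim on both arrays, including PTPRC at 2.50 and 2.37 and SPI1 at 3.10 and 3.20. The other 4 were bright, with CD79A at 5.88 and 5.96, CD3E at 5.56 and 5.59, AIF1 at 5.43 and 5.67, and ITGAM at 5.19 on both arrays. The log2 differences of the 12 ran from -0.13 to 0.32, and 0 were past 1.5-fold. Summed on the linear scale, the 12 markers came to 315 in untreated cells and 337 with IL4. Of 7 fibroblast markers 1 was at least 1.5-fold higher, the dim gene COL3A1. Their sum was 1945 and 2546 and came mostly from COL1A1, which was at 10.82 in untreated cells and 11.23 with IL4, a log2 difference of 0.41 with all 5 of its probe sets higher. Of 6 endothelial markers 0 were past 1.5-fold, with sums of 176 and 195. For comparison with these marker counts, 7.6% of all genes were past 1.5-fold in either direction. The part of other cells in the differences of the 10 genes was not tested.

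The 6 genes past 1.5-fold kept their direction and stayed past that level in every setting that gave them a value. Several settings could not have changed this. Centring moved no value, because the median difference over all probe sets was 0, and the loess correction was at most 0.070. TLR1, TLR2 and TICAM1 have 1 probe set each, so only the loess correction and quantile normalization could move them. IRAK2 ranged from 0.63 to 1.46 on the log2 scale, TICAM1 from 0.83 to 0.85 and TLR2 from 0.77 to 0.81. TLR1 ranged from -1.65 to -1.61, TLR6 from -0.82 to -0.63 and TLR3 from -0.78 to -0.68. The lowest value of IRAK2 and the smallest decreases of TLR6 and TLR3 came from the mean over all probe sets of a gene.

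**Figure D4:**
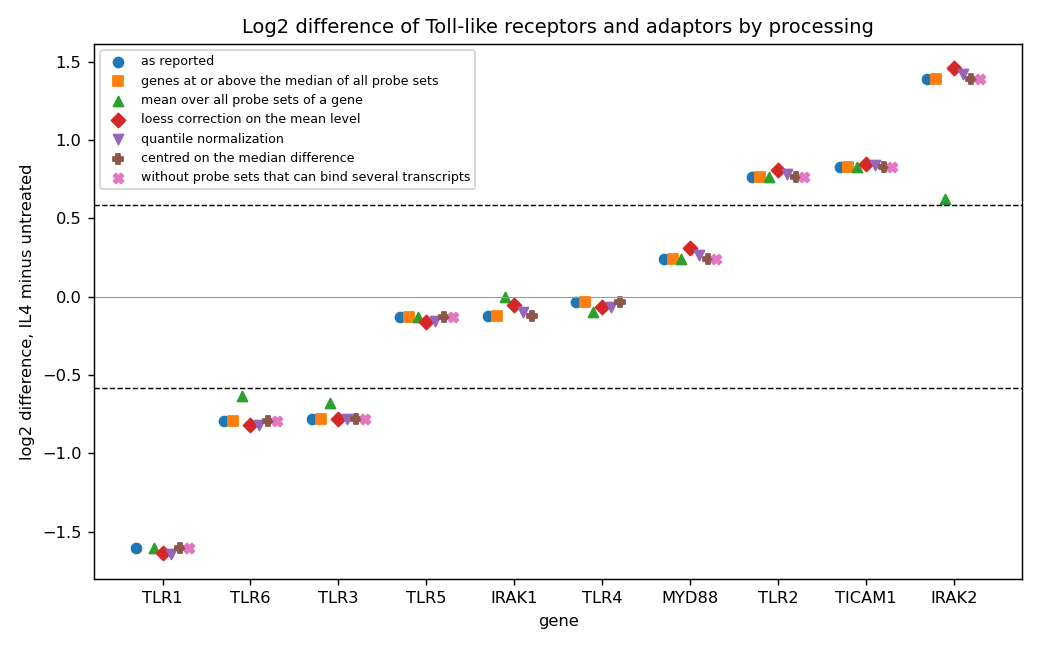
The y axis gives log2 differences, IL4 minus untreated, of the 10 genes (x axis) as reported and under 6 other ways of processing (symbols). The 1.5-fold levels are dashed; for IRAK2 the mean over its probe sets lies at 0.63 and the other values at 1.39 or above, and a gene has fewer symbols where a setting left no value.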

How the data were processed

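Gene expression was measured in untreated and IL4-treated H2228 cells on 1 array each. The deposited values are log2 expression values per probe set, made by the authors with RMA (no version given), which corrects background, makes the distributions of the arrays alike and summarises the probes of each probe set. The raw data went through GCOS per the paper. The values were used as deposited, and scanner files were not used here. The number of arrays limits the precision.

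Of 54675 probe sets, 41091 had 1 gene symbol in the array annotation, 1801 had several, 11721 were not named and 62 were controls. Symbols of 41037 probe sets were updated through the RefSeq table of GRCh38.p14. As a sign of RNA integrity, the log2 difference of 3' minus that of 5' control probe sets was -0.30 for ACTB and -0.015 for GAPDH. These controls were unlike, and whether the arrays differed in RNA quality or labelling was not tested. All 10 genes were described, and from each list up to 4 increases and 4 decreases past 1.5-fold among bright genes, or the 2 largest differences where none passed. Members and lists were chosen with earlier results of these data known. With 2 arrays every pair of genes correlates at 1 or -1, so no genes of like pattern were sought. Alternatives were a 2-fold level, bright genes alone, the mean over probe sets, any probe set, a loess correction (fraction 0.3), quantile normalization, centring, and leaving out probe sets designed to match several transcripts. Counting was tested on simulated data with planted 2-fold changes and noise well below the SD between probe sets of a gene. That check concerns the code and not the precision of counts at 1.5-fold in these data. Python 3.11.15, numpy 2.4.6, pandas 2.3.3, statsmodels 0.14.6 and matplotlib 3.10.9 were used.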

Additional observations from a re-analysis of the deposited data

How the results depend on the processing

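At a 2-fold level, 1 of the 10 genes was higher (IRAK2) and 1 was lower (TLR1), beside 1.11% and 0.89% of all genes, and 0 of the 82 other pathway genes were lower. When probe sets designed to match several transcripts were left out, 65 pathway genes kept a value, and 10 of these were higher and 2 lower, compared with 18 and 4 of 82. That setting left no value for TLR4 and IRAK1, and gave log2 differences of 0.023 for MAP2K6 and -0.0083 for ATF3, opposite in sign to those reported and both from dim probe sets. It also left no value for CXCL8, CCL2 and TNFAIP3, and CASP8 fell under 1.5-fold at -0.20. With the mean over probe sets, 2 pathway genes were lower, IRAK3 at -0.61 and MAP3K8 at -0.64. Neither probe set of MAP3K8 was bright, and their log2 differences were 0 and -1.27. The 4 genes reported as lower stayed under 1.5-fold in that setting, with PELI2 at -0.20, MAP2K6 at -0.37, CASP8 at -0.39 and REL at -0.49. The other counts over the 10 genes and the pathway stayed within 1.5 times, and the median of the 10 genes moved by less than 0.25, the SD between probe sets of a gene, although it was 0.054 instead of -0.079 when probe sets designed to match several transcripts were left out. No paired analysis was possible because each condition has 1 array, and for the same reason no replicate could be left out.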

Other observations

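MYD88 also serves the receptors of the IL1 family. Of 7 measured genes of this family, 1 was at least 1.5-fold higher with IL4, beside 3.21% of all genes, and 0 were lower, with a median log2 difference of 0.33. The higher gene was IL18R1, a chain of the IL18 receptor, which was dim at 3.28 in untreated cells and 4.46 with IL4 and was named after its values were seen. IL1RAP, the chain shared by several receptors of the family, was at 7.86 in untreated cells and 8.21 with IL4, and IL1R1, the receptor of IL1, was at 8.51 and 8.50. IL1RL1, the receptor of IL33, had a log2 difference of 0.39 from the probe set with the highest mean. Another of its 4 probe sets was at 4.64 in untreated cells and 6.16 with IL4, a log2 difference of 1.52, and the remaining ones had 0.080 and 0.12.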
